A study of Mus musculus with 577 samples.

Results

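A set of 10 immediate early and stress response genes was followed through every gene count table of the series. They were Fos, Fosb, Jun, Junb, Egr1, Atf3, Ier2, Dusp1, Zfp36 and Ccl2, 10 of the 22060 protein-coding genes counted. They were chosen by symbol, on a rule that names the comparisons in which their levels had already been seen to differ, so the values in those comparisons are given here as a description with no test. The comparisons were dissociated against laser-captured granulosa cells and oocytes of 1 mouse, fresh against laser-captured mouse embryonic stem cells (mESCs), and fixed sections.

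The study developed DRaqL, a detergent lysis that releases RNA from single cells cut out of fixed sections by laser capture microdissection (LCM), and sequenced 577 libraries, of which 562 with gene counts were used. In the same-mouse experiment, 1 ovary of an 8-week-old mouse killed in proestrus was frozen, sectioned and fixed in alcohol. It gave 70 granulosa cells (35 neighboring and 35 non-neighboring to the oocyte) and 8 oocytes of secondary-to-antral follicles by LCM with DRaqL-Smart-seq2. The other ovary gave cumulus-oocyte complexes of fully grown follicles, collected in medium with dibutyryl-cAMP, a cell-permeable analog of cAMP. Pipetting of these complexes gave 14 granulosa cells attached to an oocyte, 21 other granulosa cells and 14 oocytes labelled grown, all amplified by Smart-seq2 without DRaqL. Follicle stage, ovary, medium, dissociation, lysis and library pool therefore change together between the dissociated and LCM cells and cannot be told apart. The mESCs (45 fresh, 36 from alcohol-fixed sections of cell blocks) came from 1 culture batch kept in 2iLIF, which holds the MEK inhibitor PD0325901 (0.4 µM), the GSK inhibitor CHIR99021 (3 µM) and LIF. Other granulosa cells and oocytes came from ovarian sections of 8-week-old mice, fixed in alcohol or for 24 h in formalin. They were amplified by SC3-seq, SMART-Seq v4, Smart-seq2 or LCM-seq. The study describes 3′-end libraries for SC3-seq and for its DRaqL methods built on Smart-seq2. It states that the amplification methods it compared used sections of the same ovary. In addition, 14 pools of about 10 granulosa cells and 7 bulk samples of whole granulosa were captured from alcohol-fixed sections.

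Immediate early genes are transcribed within minutes of a stimulus without new protein synthesis, mostly through factors already bound at their promoters and activated by the ERK, p38 and cAMP pathways. Their mRNAs are short and unstable. Several encode subunits of the transcription factor AP-1, whereas others encode regulators that shut the response down. In granulosa cells, the same genes respond to gonadotropins acting through cAMP.

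The promoters of the AP-1 subunit genes and of the feedback regulators are shown because the 4 AP-1 genes were called between dissociated and LCM granulosa cells, whereas Dusp1 and Zfp36 were not, and because the dissociation medium held a cAMP analog. They are the 250 bases before the annotated start in RefSeq (build GRCm38.p6), 5′ to 3′ on the strand of the gene, with matches to searched motifs in capitals. The windows were chr12:85473640-85473889 (plus strand) for Fos, chr7:19310046-19310295 (minus strand) for Fosb and chr4:95052223-95052472 (minus strand) for Jun. Those of the other genes were chr8:84978749-84978998 (minus strand) for Junb, chr17:26508473-26508722 (minus strand) for Dusp1 and chr7:28379229-28379478 (minus strand) for Zfp36.
Fos: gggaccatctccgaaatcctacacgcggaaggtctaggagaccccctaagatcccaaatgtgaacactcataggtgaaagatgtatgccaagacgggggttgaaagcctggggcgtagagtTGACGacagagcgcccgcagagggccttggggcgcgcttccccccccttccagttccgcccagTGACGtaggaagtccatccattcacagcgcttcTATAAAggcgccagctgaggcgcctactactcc
Fosb: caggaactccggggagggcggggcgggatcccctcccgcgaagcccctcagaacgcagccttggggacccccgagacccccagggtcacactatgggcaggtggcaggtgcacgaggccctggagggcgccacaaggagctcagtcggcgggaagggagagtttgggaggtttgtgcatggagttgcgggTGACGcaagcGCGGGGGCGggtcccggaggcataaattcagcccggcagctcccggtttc
Jun: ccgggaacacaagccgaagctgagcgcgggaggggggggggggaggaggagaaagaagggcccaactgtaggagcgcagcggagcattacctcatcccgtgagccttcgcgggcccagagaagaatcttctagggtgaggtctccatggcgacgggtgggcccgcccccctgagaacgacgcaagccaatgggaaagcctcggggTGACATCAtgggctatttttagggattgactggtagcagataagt
Junb: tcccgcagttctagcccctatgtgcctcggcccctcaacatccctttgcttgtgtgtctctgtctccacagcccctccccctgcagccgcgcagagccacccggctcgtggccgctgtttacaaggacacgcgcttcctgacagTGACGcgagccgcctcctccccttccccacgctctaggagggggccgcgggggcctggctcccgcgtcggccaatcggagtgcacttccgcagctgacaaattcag
Dusp1: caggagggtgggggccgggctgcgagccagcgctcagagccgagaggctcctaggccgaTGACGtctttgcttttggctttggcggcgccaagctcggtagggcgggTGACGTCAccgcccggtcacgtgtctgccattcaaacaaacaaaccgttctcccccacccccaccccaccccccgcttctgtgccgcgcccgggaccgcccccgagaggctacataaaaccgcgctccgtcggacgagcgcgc
Zfp36: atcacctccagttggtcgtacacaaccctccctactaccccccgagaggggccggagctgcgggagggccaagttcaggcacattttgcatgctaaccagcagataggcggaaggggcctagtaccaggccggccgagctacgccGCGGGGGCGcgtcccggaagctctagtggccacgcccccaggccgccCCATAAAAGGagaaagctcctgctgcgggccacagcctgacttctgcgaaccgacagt

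The cAMP response element TGACGTCA stood in the Dusp1 window alone among the 7 promoters matched, from −143 to −136, and 2.01% of 19431 RefSeq promoter windows of the same length held it on either strand. Its core TGACG was in the Fos (from −129 and from −66), Fosb (from −60), Junb (from −106), Dusp1 (from −191, and within the full site) and Atf3 (from −7, minus strand) windows, against 20.7% of all windows. A CArG box, the site class of serum response factor, was in the Zfp36 window from −58 (1.34% of all windows), and an EGR site (GCGNGGGCG) was in the Fosb and Zfp36 windows (6.57%). TATAAA was in the Fos window (11.2%). The AP-1 site TGANTCA was in none of the 7 windows (6.17% of all). The capitals in the Jun window mark TGACATCA (2.61%), whose letters were added to the search after the sequence was seen. A match describes letters in a window and is no evidence that a factor was bound there. Bases further upstream were not searched, so a motif absent from a window can still lie beyond it. Whether the cAMP analog changed the level of any member was not tested. Ier2, Ccl2 and Egr1 are named only.

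**Figure D1:**
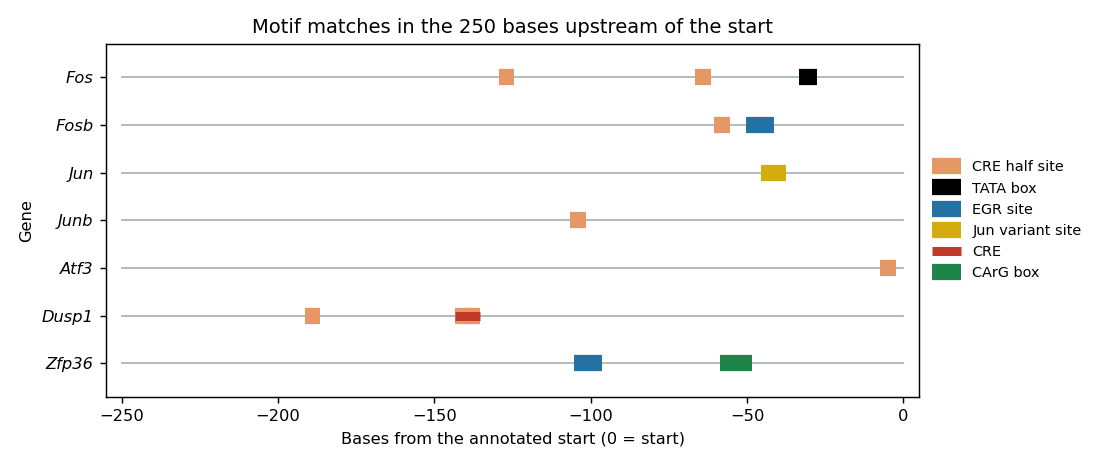
Motif matches in the 250 bases upstream of the annotated start of 7 members. The horizontal axis is the distance from the start in bases, each grey line is 1 window, and each colored block is 1 match. The cAMP response element appears in the Dusp1 line alone, at −143 to −136.

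All levels below are log2(RPM + 1), where RPM is the read count scaled to a common library total of protein-coding reads, and 0 means that no read was counted. A member was called where the mean levels of 2 groups of cells differed by more than 1.8 and at least 1 cell had a level above 4. The cells of each group came from 1 mouse or 1 culture, or from mice the labels do not name, so they are 1 sample per group, the SD is over cells and no p-value is given. Intervals on shares (95%, Clopper-Pearson) and on ratios of summed reads cover counting error only.

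In granulosa cells, 6 members were called higher in the dissociated cells and 0 lower. They were Fos, Fosb, Jun, Junb, Egr1 and Ier2. Over all 15700 genes that passed the level requirement, 8.86% were called higher in dissociated cells and 6.8% lower, and since the rule used this contrast the comparison of these shares is a description. Of the 10 members, 9 passed the level requirement, 9 had a mean difference above 0, and the median difference of all 10 was 2.38, against −0.06 over all genes that passed. Under TMM scaling the called genes split as 877 higher and 1476 lower in place of 1391 and 1068, whereas the same 6 members were called. The members nearest to the threshold were Fosb inside it, at 2.01, and Dusp1 outside it, at 1.65.

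Fos, the AP-1 subunit that pairs with Jun proteins, was read in nearly every dissociated cell. It ranged from 0 to 13.18 in the 35 dissociated cells (median 8.25), and from 0 to 9.04 in the 70 LCM cells (median 0). Reads of Fos were present in 33 of 35 dissociated cells (94.3%, 80.8 to 99.3) and in 19 of 70 LCM cells (27.1%, 17.2 to 39.1). The distributions overlapped, with 13 dissociated cells above the highest LCM cell. The mean was 7.89 ± 3.42 (SD, n = 35) against 1.39 ± 2.53 (n = 70), a difference of 6.49 of rank 2 among all 15700 genes. In summed reads, Fos stood at 1233 RPM against 10.7 RPM, a 115.2-fold ratio (103.2 to 129).

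Jun, its partner in AP-1, had rank 3. Its level ran from 0 to 10.71 in dissociated cells (median 6.77) and from 0 to 8.32 in LCM cells (median 0). It was read in 31 of 35 dissociated cells and 15 of 70 LCM cells, and 14 dissociated cells lay above every LCM cell. The mean was 6.74 ± 3.03 against 0.91 ± 1.99, and the summed level was 324 against 9.43 RPM (34.4-fold, 30.3 to 39.1).

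Junb and Fosb, which encode the other AP-1 subunits among the members, were present in fewer cells. Junb was read in 17 of 35 dissociated and 7 of 70 LCM cells, with means of 3.18 ± 3.66 and 0.40 ± 1.24 and a 61.7-fold ratio of summed levels (45.8 to 84.8). Fosb had reads in 13 of 35 dissociated cells, up to a level of 9.23, and a mean of 2.01 ± 2.89. No Fosb read was counted in the 70 LCM cells, a share of at most 5.13%. With 3 reads assumed as a floor for that group, the ratio of summed levels of Fosb was 351-fold, a value that depends on the floor and is no lower bound. Reads are not scaled by gene length here, and within the reads of the 4 AP-1 subunits Fos held 83.48% in attached and 65.96% in other dissociated granulosa cells, but 44.44% and 51.35% in neighboring and non-neighboring LCM cells.

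Egr1, a zinc finger transcription factor induced by ERK signaling, differed by 2.76. It was read in 22 of 35 dissociated cells (0 to 10.41, median 4.72) and in 19 of 70 LCM cells (0 to 9.62, median 0). The means were 4.33 ± 3.90 and 1.58 ± 2.93, and 1 dissociated cell exceeded all LCM cells. The summed ratio was 5.66-fold (5.15 to 6.21). Ier2, an immediate early nuclear protein gene, was read in 27 of 35 against 21 of 70 cells. Its means were 5.31 ± 3.74 and 1.38 ± 2.50, with 10 dissociated cells above every LCM cell and a 17.7-fold ratio (15.9 to 19.7).

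The remaining members were not called. Dusp1, a phosphatase that switches off MAP kinases, had means of 2.16 ± 3.31 and 0.51 ± 1.67 and was read in 12 of 35 and 9 of 70 cells. Zfp36, which binds AU-rich mRNA elements and promotes decay, had means of 1.06 ± 2.44 and 0.56 ± 1.56. Atf3, a stress-induced transcription factor, had no read in the 35 dissociated cells and 2 reads in 2 LCM cells. Ccl2, a chemokine that attracts monocytes, was read in 3 of 35 and 6 of 70 cells, with means of 0.53 ± 1.78 and 0.39 ± 1.50. A single LCM cell held 712 of the 729 Ccl2 reads of its group, so the ratio of summed reads of this gene reflects that cell.

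**Figure D2:**
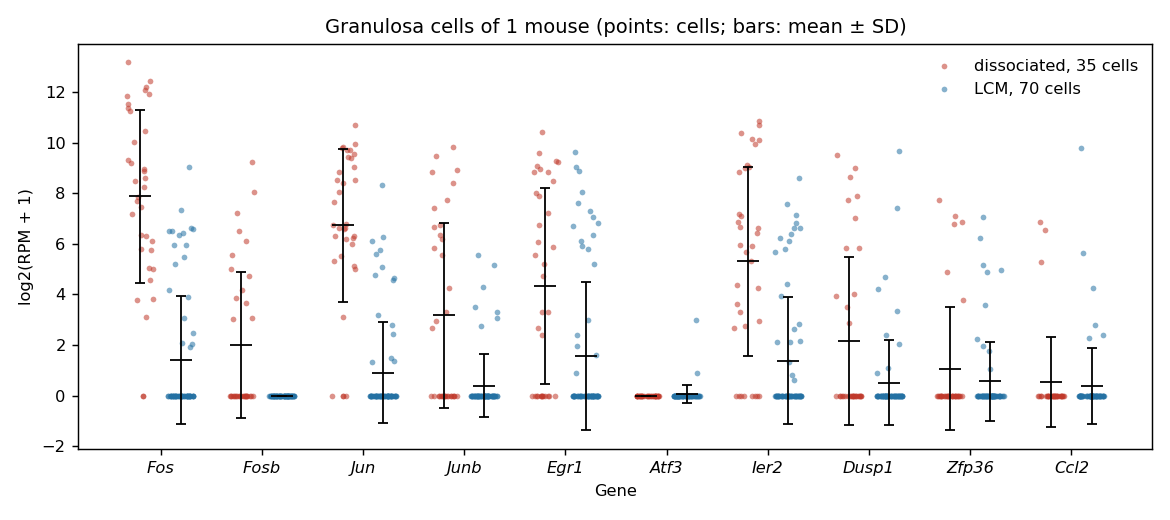
Levels of the 10 members in granulosa cells of 1 mouse. The vertical axis is log2(RPM + 1), each point is 1 cell (red, 35 dissociated; blue, 70 LCM), and the black bars are the mean ± SD. Fos, Jun and Ier2 are high in most dissociated cells and at 0 in most LCM cells, whereas Ccl2 and Atf3 are at or near 0 in both.

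The dissociated libraries were shallower, with 12748 to 353959 reads (median 111681) against 21733 to 3745815 (median 262594), so shares of cells were also taken after thinning every library to 50000 reads, which left out 2 dissociated and 1 LCM cells. Fos was then read in 28 of 33 dissociated and 14 of 69 LCM cells, Jun in 28 and 9, Ier2 in 23 and 12, Egr1 in 18 and 13, Junb in 13 and 2, Fosb in 10 and 0, and Dusp1 in 11 and 7. The same 6 members were called on the thinned counts, with Fosb at a difference of 1.81.

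Over the 35 dissociated cells, which share 1 mouse and vary in depth, Pearson's r was 0.77 for Jun and Ier2 and 0.65 for Fos and Egr1, but 0.17 for Fos and Jun (Spearman's rho 0.41). At least 5 of the 10 members were read in 18 of 35 dissociated cells and 2 of 70 LCM cells, and no member was read in 0 and 13 cells.

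Dissociated cells attached to an oocyte resembled the other dissociated cells in the mean level of Fos (7.88 ± 3.69, n = 14, and 7.89 ± 3.33, n = 21) and Jun (6.42 ± 3.19 and 6.95 ± 2.98). Egr1 (3.36 and 4.99), Fosb (1.11 and 2.60), Ier2 (4.55 and 5.82) and Junb (2.67 and 3.51) had higher means in the unattached cells. Dusp1 (2.67 and 1.83) and Ccl2 (0.96 and 0.25) had lower means there. Each of these differences lay within 1 SD over cells. Only 3 library pools held both kinds of cell. Among them, Egr1 and Fosb were higher in unattached cells in 2, and Ier2 and Junb in 1. Across the 7 library pools of dissociated granulosa cells, the mean of Fos ran from 5.95 to 10.05 and that of Jun from 4.26 to 8.73. Across the 7 LCM pools the ranges were 0 to 3.49 for Fos and 0 to 1.91 for Jun, so the pools of the 2 kinds did not overlap for either gene. The pool labelled RawPair05 had the highest mean of Fos, Jun, Junb, Fosb, Ier2 and Dusp1, and without it Fosb fell below the threshold, to a difference of 1.25.

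The granulosa identity of both groups was checked on 10 markers. All 10 had reads in both groups, and their summed level was higher in dissociated cells (median 16779 RPM, range 555 to 69105) than in LCM cells (4124 RPM, 295 to 11606). The markers differed in direction. The inhibin subunit gene Inha had means of 12.76 and 10.28, Inhba 9.08 and 1.74, and Inhbb 8.48 and 3.81. Fst and Hsd17b1 were also higher in dissociated cells. Lower there were Foxl2 (4.90 and 5.26), Nr5a2 (7.73 and 9.40), Fshr (6.00 and 7.02), Amhr2 (5.53 and 5.74) and Amh (0.85 and 1.11). The 5 theca and interstitial markers measured had a read in 31 of 35 dissociated and 29 of 70 LCM cells (medians of 431 and 0 RPM, up to 14076 and 22903). Among them the steroid dehydrogenase gene Hsd3b1 was read in 31 and 26 cells, and the theca enzyme gene Cyp17a1 in 3 and 11. The immune markers Ptprc, Csf1r and C1qa were at 0 in all dissociated cells, the 6 immune markers together had a read in 4 of 35 and 22 of 70 cells (up to 56.3 and 297 RPM), and the 4 endothelial markers in 5 and 33 cells, with 1 of them at 0 in dissociated cells. The 4 blood markers had reads in 18 of 35 dissociated cells, up to 86993 RPM, and in 11 of 70 LCM cells, up to 615 RPM. The part of these differences in the member values was not tested.

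A few granulosa cells also carried an oocyte profile, with the summed level of 14 oocyte markers above 10% of its median in oocytes. These were 3 of 35 dissociated cells, all attached to an oocyte, and 4 of 70 LCM cells. The study judged mixed profiles from contour plots and counted more of the dissociated cells as mixed, both attached and unattached. Cells that the study counted and the marker cutoff did not are still included below. Without the cells past the marker cutoff the differences were 6.24 for Fos, 5.94 for Jun, 4.13 for Ier2, 2.84 for Junb, 2.77 for Egr1 and 2.19 for Fosb. Ccl2 was read in 2 of the 3 mixed dissociated cells but in 1 of the other 32, and the LCM cell with 712 Ccl2 reads was a mixed cell.

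No group of laser-captured granulosa cells reached the dissociated means of Fos and Jun. Over the 14 groups of single section granulosa cells (295 cells), the highest group mean was 2.94 for Fos (neighboring, DRaqL-Smart-seq2), 3.01 for Jun (neighboring, DRaqL-SMART-Seq v4), 3.32 for Ier2, 1.01 for Junb and 0.45 for Fosb. They leave out 3 SC3-seq cells of mixed profile, in which Fos and Jun had no read and Ier2 reached a mean of 7.87 in 2 cells. The LCM cells of the same mouse are among these groups. The other groups come from mice the labels do not name, and all groups differ from the dissociated cells in method as well as in dissociation.

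**Figure D3:**
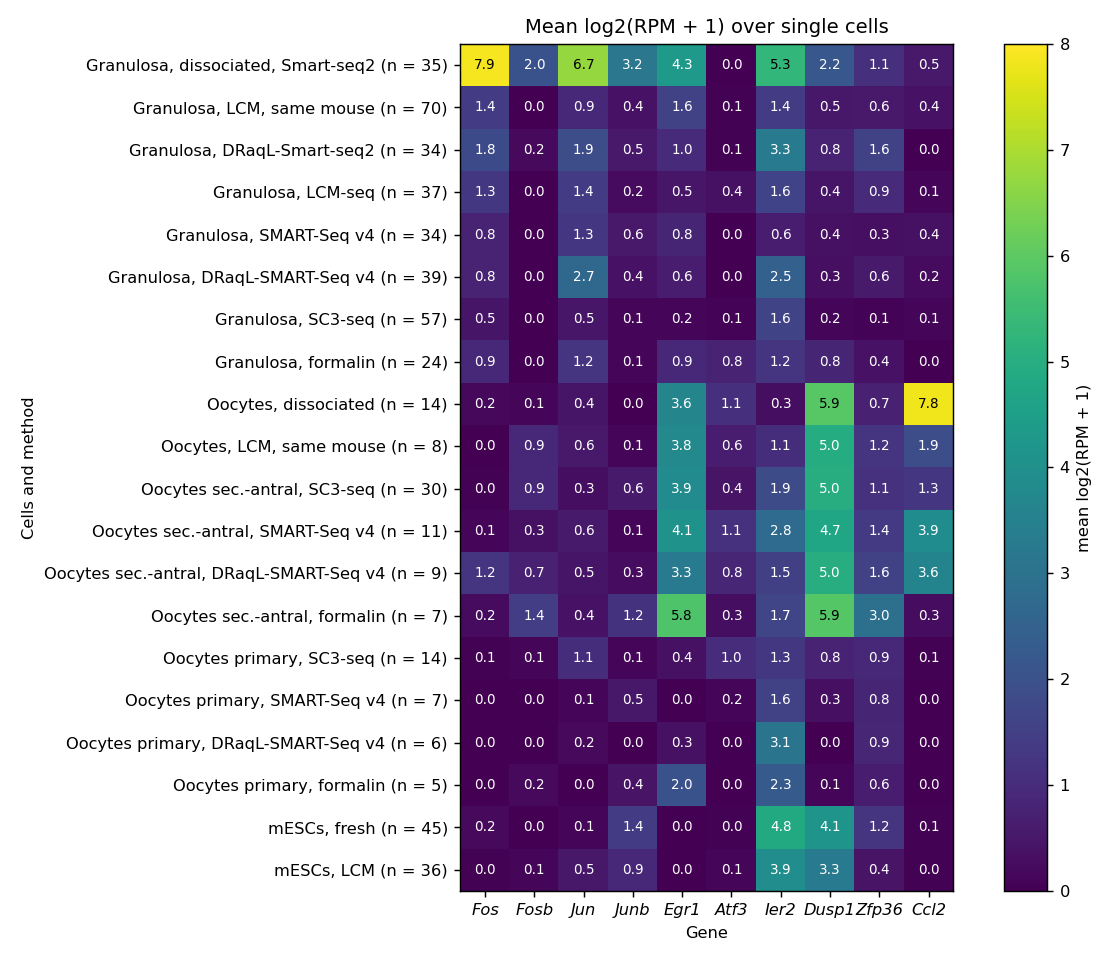
Mean level of each member in 20 sets of single cells. Rows are cell type and method with the number of cells, columns are genes, and color and printed value are the mean log2(RPM + 1). Fos (7.9) and Jun (6.7) peak in dissociated granulosa cells, Ccl2 (7.8) and Dusp1 (5.9) in dissociated oocytes, and Egr1 (5.8) in formalin-fixed oocytes of secondary-to-antral follicles, where Dusp1 was also 5.9.

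In oocytes of the same mouse a different member stood apart. Ccl2 was read in all 14 dissociated oocytes, from 6.07 to 8.86 (median 7.94). In the 8 LCM oocytes it was 6.00, 5.87, 2.26, 0.95 and 0 in the other 4. Every dissociated oocyte lay above every LCM oocyte. The means were 7.83 ± 0.78 (n = 14) and 1.88 ± 2.62 (n = 8), the difference of 5.95 ranked highest of 11508 genes, and the summed levels were 240 and 8.30 RPM (28.9-fold, 21.6 to 39.4). Ccl2 was the only member called among the 5 that passed the level requirement, against 6.25% of all genes called higher and 7.9% lower. The median difference over the 10 members was −0.12.

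The 2 LCM oocytes with high Ccl2 came from the library pools labelled LCMPair02 and LCMPair06, 1 oocyte each, and the 6 oocytes of LCMPair08 had a mean of 0.54. Without LCMPair08 the difference was 1.90, with 2 LCM oocytes left. The dissociated oocyte from each of 4 pools had 6.07, 7.10, 7.79 and 8.42, and the 10 oocytes of RawPair08 had a mean of 8.03. After thinning to 50000 reads, Ccl2 was read in 14 of 14 and 2 of 8 oocytes.

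Dusp1 and Egr1 were read in every oocyte of both kinds. Dusp1 ran from 4.34 to 6.76 in dissociated oocytes and from 2.64 to 5.96 in LCM oocytes, with means of 5.93 ± 0.66 and 4.96 ± 1.03. Egr1 had means of 3.64 ± 0.73 and 3.76 ± 0.94. The AP-1 subunits that stood high in dissociated granulosa cells were near 0 in dissociated oocytes. Fos was read in 1 of 14 (mean 0.16) and 0 of 8 oocytes, Jun in 3 of 14 and 1 of 8, Junb in 0 of 14 and 1 of 8, and Ier2 in 2 of 14 and 2 of 8. The 10 granulosa markers had summed levels of 43.7 to 237 RPM (median 67.2) in dissociated and 85.7 to 241 RPM (median 148) in LCM oocytes, and 9 of the 10 had reads in each kind, with Amh at 0 in both. The markers differed in direction, with Foxl2 read in 1 of 14 dissociated and 6 of 8 LCM oocytes, Fst in 10 and 2, Inha in 13 and 8, and Nr5a2 in all of both kinds. Their part in the member values was not tested.

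**Figure D4:**
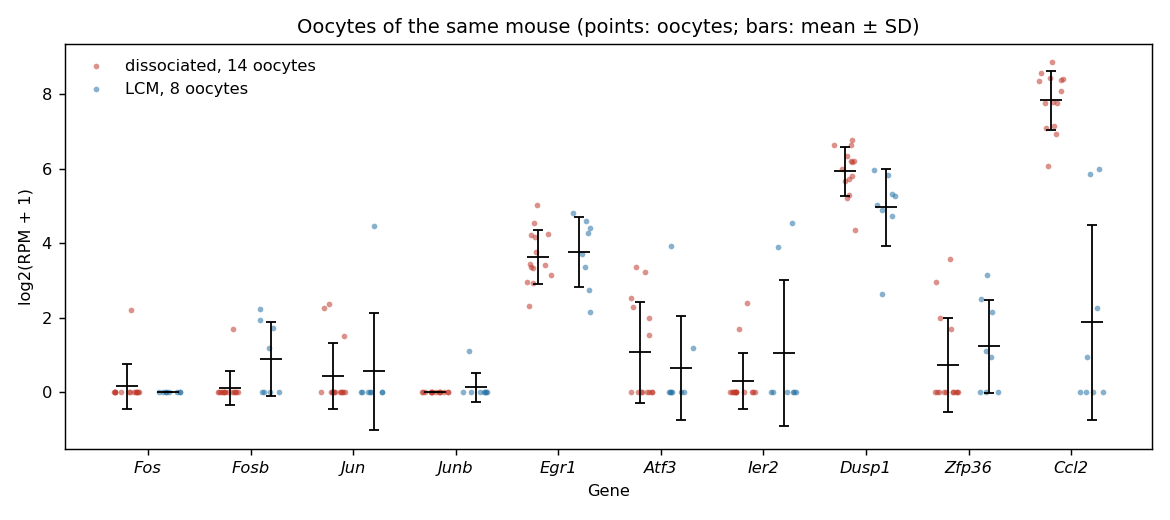
Levels of the 10 members in oocytes of the same mouse. The vertical axis is log2(RPM + 1), each point is 1 oocyte (red, 14 dissociated; blue, 8 LCM), and the black bars are the mean ± SD. The 14 dissociated oocytes lie above all 8 LCM oocytes for Ccl2, and the groups overlap for Dusp1 and Egr1.

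In mESCs, no member was called in either direction, against 0.465% of 13108 genes higher in fresh cells and 0.0229% lower. Both kinds of mESC carried the pluripotency markers, with summed medians of 1524 and 1499 RPM. Ier2 ran from 0.96 to 8.14 in fresh cells (median 4.92) and from 0 to 6.37 in LCM cells (median 4.32), with means of 4.85 ± 1.55 (n = 45) and 3.91 ± 1.47 (n = 36). Dusp1 was read in 43 of 45 and 32 of 36 cells, with means of 4.14 ± 2.07 and 3.30 ± 2.40. The groups overlapped for both genes.

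The other members were sparse in mESCs. Junb had means of 1.43 ± 1.74 and 0.89 ± 1.52, Zfp36 1.21 ± 1.42 and 0.41 ± 0.90, and Jun 0.10 ± 0.61 and 0.51 ± 1.37. Fos was read in 4 of 45 fresh and 2 of 36 LCM cells, where 131 of 136 reads of fresh cells lay in 1 cell. Egr1, an ERK target, had 1 read in all 45 fresh cells and 0 in the 36 LCM cells. The median difference of the 10 members was 0.09, against 0.19 over all genes tested.

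In granulosa cells of formalin-fixed sections, 1 member was called lower than in alcohol-fixed sections and 0 higher, against 8.25% of 15581 genes lower and 1.43% higher. Ier2 ran from 0 to 7.48 (median 0) in the 24 formalin cells and from 0 to 7.88 (median 3.65) in the 34 alcohol cells, with means of 1.21 ± 2.26 and 3.32 ± 2.38. Zfp36, at −1.17, was the nearest member outside the threshold. The call of Ier2 was lost on summed reads, where the ratio was 0.758 (0.623 to 0.915), with a pseudocount of 10, and with totals over all genes. Zfp36 had means of 0.40 ± 1.36 and 1.57 ± 1.88, Fos 0.93 ± 2.35 and 1.81 ± 2.60, and Jun 1.21 ± 2.00 and 1.88 ± 2.56. Atf3 had 146 reads in 4 formalin cells, 140 of them in 1 cell, and 2 reads in 2 alcohol cells. The formalin libraries were shallower (median 164188 reads against 831978) and were lysed with a protease added to the detergent.

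Follicle stage, which the rule does not name although it names fixed sections, separated some members in oocytes. The study reported that oocytes of these stages fell into separate expression clusters. The share of all genes that differ by stage was not computed, so the differences below cannot be called particular to the members. Dusp1 was low in oocytes of primary follicles and present in those of secondary-to-antral follicles in all 4 methods. Its means were 0.76 ± 0.92 (n = 14) and 4.99 ± 1.67 (n = 30) by SC3-seq, 0.33 ± 0.87 (n = 7) and 4.74 ± 0.73 (n = 11) by SMART-Seq v4, 0 (n = 6) and 4.98 ± 1.21 (n = 9) by DRaqL-SMART-Seq v4, and 0.12 ± 0.26 (n = 5) and 5.88 ± 1.47 (n = 7) in formalin. The stages did not overlap in the last 3 sets, and in SC3-seq 28 of 30 oocytes lay above every primary oocyte. The labels name no mice for these oocytes, so the stage differences were not tested. Since the study states that the methods it compared used the same ovary, a common order over methods is no repeat over animals.

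Egr1 followed the same order, with means of 0.36 and 3.87 by SC3-seq, 0 and 4.11 by SMART-Seq v4, 0.35 and 3.31 by DRaqL-SMART-Seq v4, and 2.01 and 5.78 in formalin. Its stages did not overlap by SMART-Seq v4 and overlapped in the other 3 sets. Ccl2 had no read in primary oocytes of 3 sets and 1 read in the fourth, and means of 1.27, 3.88, 3.61 and 0.27 in secondary-to-antral oocytes, the last from formalin sections. Fosb had means of 0.11, 0, 0 and 0.21 in primary and 0.88, 0.34, 0.75 and 1.44 in secondary-to-antral oocytes. Ier2 had no common direction, with higher means in secondary-to-antral oocytes by SC3-seq (1.30 and 1.87) and SMART-Seq v4 (1.56 and 2.81) and lower means by DRaqL-SMART-Seq v4 (3.07 and 1.52) and in formalin (2.26 and 1.66).

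**Figure D5:**
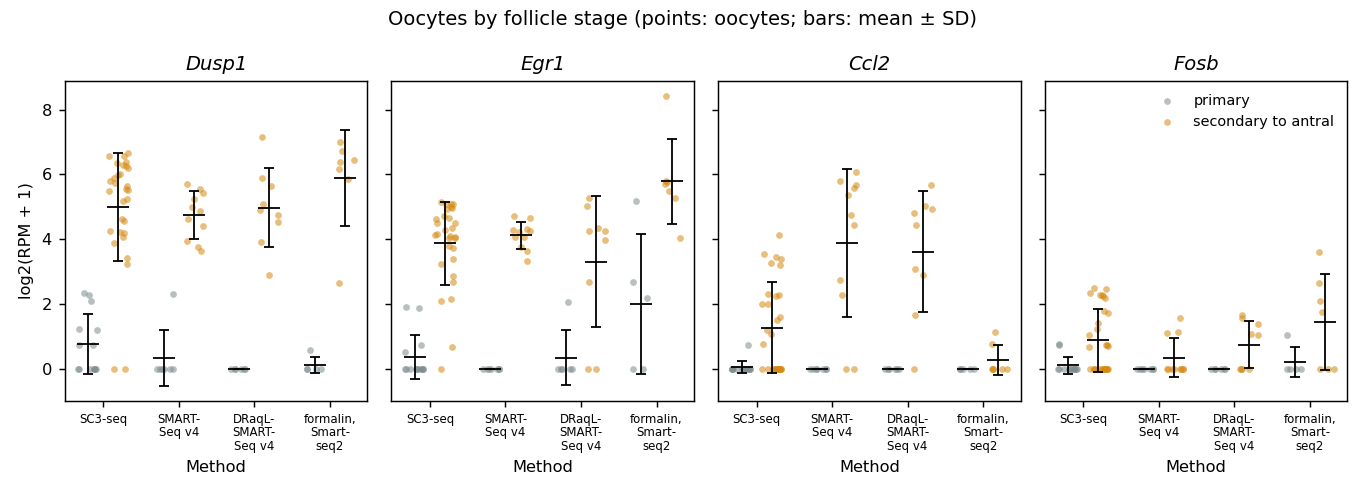
Dusp1, Egr1, Ccl2 and Fosb in oocytes by follicle stage and method. The vertical axis is log2(RPM + 1), each point is 1 oocyte (grey, primary; orange, secondary to antral), and the black bars are the mean ± SD. For Dusp1, primary oocytes have means of 0 to 0.76 and secondary-to-antral oocytes of 4.74 to 5.88.

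A pair of serial sections was sequenced from each of 8 oocytes, which gave a repeat measurement of 1 cell. Dusp1, Ccl2 and Egr1 were read in both sections of all 8, with median absolute differences between sections of 0.35, 0.86 and 0.83. For Dusp1, the SD of the section difference was 0.26 and the SD between the means of the 8 oocytes 0.34. For Egr1 and Ccl2 these were 1.13 and 0.56, and 1.13 and 0.90. Fosb was read in both sections of 6 oocytes, and Fos in both sections of 0 and in 1 section of 3.

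Egr1 differed between positions in the follicle among the LCM granulosa cells of the 1 mouse. Egr1 was read in 1 of 35 neighboring cells (mean 0.05 ± 0.27) and in 18 of 35 non-neighboring cells (mean 3.10 ± 3.54), and 17 non-neighboring cells exceeded every neighboring cell. The mean was higher in non-neighboring cells in 6 of 7 library pools and equal in 1. Several pools held few cells of a position, such as 2 neighboring cells in LCMPair02 and LCMPair07. Non-neighboring cells numbered 1 in LCMPair01 and 3 in LCMPair03 and LCMPair06. In LCMPair02 the difference rested on 1 of 9 non-neighboring cells (mean 0.10). Fos (1.10 and 1.69) and Ier2 (0.83 and 1.93) were higher in non-neighboring cells in 6 of 7 pools each, whereas Jun (1.21 and 0.61) was higher in neighboring cells in 5 of 7. Other markers moved with position in these cells. The theca and interstitial markers were read in 8 of 35 neighboring (up to 445 RPM) and 21 of 35 non-neighboring cells (up to 22903 RPM), the immune markers in 14 and 8 cells, and the summed oocyte markers had medians of 350 and 124 RPM. Their part in the Egr1 values was not tested.

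The order did not recur in each of the other methods. Mean Egr1 in neighboring and non-neighboring cells was 0.16 and 0.15 by SC3-seq, 1.07 and 0 by LCM-seq, 0.89 and 0.75 by SMART-Seq v4, 0.33 and 0.87 by DRaqL-SMART-Seq v4, 0.72 and 1.19 by DRaqL-Smart-seq2, and 1.09 and 0.77 in formalin. Mean Fos, in the same order, was 0.60 and 0.28 by SC3-seq, 1.54 and 1.09 by LCM-seq, and 0.44 and 1.07 by SMART-Seq v4. It was 1.09 and 0.50 by DRaqL-SMART-Seq v4, 2.94 and 0.92 by DRaqL-Smart-seq2, and 1.86 and 0 in formalin. Ier2 and Jun had no common direction over these methods. No test was made, since cells of 1 mouse or of unnamed mice are not replicates.

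Replicated libraries, also outside the rule, were the pools of about 10 granulosa cells. Between 7 neighboring and 7 non-neighboring pools, 44 of 9704 genes (0.453%) had an adjusted p below the 0.05 threshold in edgeR's quasi-likelihood test, all higher in neighboring pools, and 402 had an unadjusted p below it. Only Ier2 among the members passed the count filter. It ran from 0 to 5.16 (median 2.78) in neighboring and from 0.16 to 3.72 (median 2.00) in non-neighboring pools, and the groups overlapped. Its log2 fold change was 1.01 ± 1.19 (SE, adjusted p = 0.998). On simulated pools the same test recovered 3 of 60 genes changed 8-fold and 19 of 70 changed 16-fold. In a class with a larger change it recovered 69 of 70. A difference of 16-fold or less could therefore be missed in a tested gene. Changes were planted only in genes of higher mean level, so the recovery does not apply to members that failed the count filter. That simulation ran on 11923 genes. Nothing in the labels says that the pools came from separate mice, and p-values then measure the spread between these pools.

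The other 9 members were read in few pools. Egr1 reached 5.15 and 6.27 in the highest pool of each kind and was read in 4 and 2 pools. Dusp1 reached 6.13 in 1 neighboring pool, with the next at 0.87. Ccl2 was read in 3 neighboring pools, up to 3.83, and in no non-neighboring pool, and Fosb in none of the 14.

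Bulk granulosa was compared with the mean of both kinds of pool in a fit over 21 libraries. The bulk samples held the whole granulosa of individual sectioned follicles, 4 of them with the oocyte removed beforehand, and differ from the pools in cell number and follicle region. In bulk samples, fewer cells of a type and less RNA per cell cannot be told apart. Fos was read in all 7 bulk samples (0.21 to 4.78, median 2.96) and in 6 of 14 pools (0 to 3.93). Its log2 fold change was 2.62 ± 1.26 (SE, p = 0.0471, adjusted p = 0.789 in edgeR's quasi-likelihood test), so it did not pass after adjustment. Egr1 (0.94 ± 1.54) and Ier2 (0.94 ± 1.01) had adjusted p-values of 1.00 each in the same fit. Over all genes, 12 of 11917 (0.101%) were called, and 743 had an unadjusted p below 0.05. None of the 3 members tested was called.

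Other genes of the response were read from 4 lists. Of 20 other immediate early transcription factors, 16 passed the level requirement in the same-mouse granulosa cells, 3 were called higher in dissociated cells and 0 lower. Over all 15700 genes that passed, 8.86% were called higher and 6.8% lower, and each list count is to be read beside these shares. Jund, a further AP-1 subunit, had means of 4.23 ± 2.67 and 0.92 ± 1.74. Of 26 signaling and decay genes, 24 passed and 1 was higher, the antiproliferative gene Btg1 (4.20 ± 2.87 and 2.36 ± 2.86). Of 18 stress kinase and integrated stress genes, 17 passed, with 2 higher and 2 lower. Txnip, a thioredoxin inhibitor, was higher (7.96 ± 2.48 and 5.68 ± 3.02). The stress kinase genes Map3k5 (4.81 ± 3.21 and 8.16 ± 2.26) and Mapk8 (2.20 ± 2.61 and 4.68 ± 3.24) were lower in dissociated cells, opposite to the AP-1 genes. None of 3 cytokine genes that passed was called. The list medians were 0.25, 0.17, 0.08 and 0.11, against −0.06 over all genes.

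In the other comparisons few list genes were called. The shares called over all genes were 6.25% higher and 7.9% lower in dissociated oocytes, and 0.465% and 0.0229% in fresh mESCs. They were 1.43% higher and 8.25% lower in formalin, 0.453% between pools and 0.101% between bulk and pools. In oocytes 2 list genes were called, both lower in dissociated cells, among them the phosphatase gene Dusp2 (1.69 ± 1.55 and 4.54 ± 1.21). In mESCs 0 list genes were called, where Zfp36l1 had the largest difference (5.99 ± 1.60 and 4.27 ± 1.54). In formalin, Myc was higher (4.58 ± 2.58 and 2.60 ± 2.44) and 1 cytokine gene lower. Between pools and between bulk and pools, 0 list genes were called by edgeR, with 1 and 4 at an unadjusted p below 0.05.

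The genes whose group means were most like the mean of the members, over 30 groups of single cells and among 11536 candidates, were Tmem185b (Pearson's r 0.78), Id2 (0.75), Dld (0.72), Gch1 (0.70) and Cyp19a1 (0.70). Of these, 4 had their highest group mean in dissociated granulosa cells that were not attached to an oocyte and Dld in dissociated oocytes. The dissociated groups, which share 1 mouse, are among the points.

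The members also shared a gene structure that the rule did not use. In the GENCODE vM21 annotation of GRCm38 their longest transcripts had spans from 1.52 kb (Ier2) to 7.36 kb (Fosb) in all members but Atf3, at 13 kb (median 3.29 kb). All lay below the median of 16.2 kb over protein-coding genes, as 44.2% of genes lay at or below the longest member. The members had 1 to 4 exons against a median of 7, where 33.4% of genes have 4 or fewer. The AU-rich nonamer core TATTTAT was present in the 3′ untranslated region of 6 members (Fos, Fosb, Jun, Atf3, Dusp1 and Zfp36), against 27.4% of genes. Jun, Junb and Ier2 have 1 exon each, so reads from their unspliced and spliced RNA cannot be told apart.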

How the data were processed

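Single-cell, pooled and bulk cDNA libraries were sequenced, and the authors deposited whole-number counts of reads per gene in 8 tables. Per the labels and the study's methods, reads were trimmed with fastp 0.20.0 and cutadapt 1.16, aligned with HISAT2 2.1.0 to GRCm38 and counted with HTSeq 0.10.0 within 10 kb of 3′ ends. Some tables hold the 22060 protein-coding genes, and others 45905 genes, of which a median of 30.6% of reads lay outside protein-coding genes. RPM was computed over protein-coding genes in all. The 15 Y-adaptor libraries and the featureCounts 2.0.1 exon and junction tables were not used here. Labels of the dissociated cells repeat the LCM extraction text, and the study's methods were followed. Depth is given in the report where it touches a result, and no 2 libraries held identical counts.

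The members and lists were chosen with earlier results of these data known. Cells of 1 mouse or culture were compared by mean and SD of log2(RPM + 1), with the study's difference of 1.8. Pools and bulk samples were tested with edgeR 4.0.16 (quasi-likelihood, TMM, Benjamini-Hochberg over all genes) in R 4.3.3, with DESeq2 1.42.0 as an alternative. All members are named. Of each list, up to 3 genes per direction with a mean of at least 4 in a group were eligible, ranked by the size of their difference. Those past the threshold are printed, with Zfp36l1. Likeness was ranked as the 5 highest correlations of group means. Scripts were tested on simulated data. In the test for pools, the planted 8-fold and 16-fold changes were at first recovered in almost no gene, and a class with a far larger fold was added afterwards, so that the test has little power at smaller folds. The AP-1 read shares, position within library pools, gene structure, oocyte-profile values per member and the Jun motif were added after the values were seen. Fold changes on the log2(RPM + 1) scale understate those of low genes. PCR reads carry no molecular identifiers. Library pools, mixed cells, pseudocounts of 0.1 and 10, TMM, summed counts, thinning and depth limits were tried as alternatives.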

Additional observations from a re-analysis of the deposited data

Results flagged for a closer look

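In groups of 4 to 10 samples, the highest or lowest sample was flagged where its gap to the next exceeded Dixon's 95% critical value, which chance alone exceeds in about 1 of 20 groups. Of 92 gene and group pairs tested, 34 were flagged (18 more had no range), and in many of them 1 sample had reads and the others had none. The values are log2(RPM + 1).

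In oocytes of primary follicles, the highest value of a gene stood apart at 1.25 for Jun and 2.07 for Egr1 by DRaqL-SMART-Seq v4. By SMART-Seq v4 the highest values were 0.757 for Jun, 1.06 for Atf3, 2.31 for Dusp1 and 5.86 for Zfp36. In formalin they were 1.06 for Fosb, 2.18 for Junb and 0.586 for Dusp1. Within each method these values came from a different oocyte for each gene, and the other oocytes of the group had no read of that gene.

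In secondary-to-antral oocytes of formalin sections, the highest value was 1.68 for Fos, 8.43 for Egr1 (the next at 5.81) and 2.05 for Atf3, each in a different oocyte, and the lowest was 2.65 for Dusp1 (the next at 5.84). In LCM oocytes of the same-mouse experiment, the highest value was 4.47 for Jun, 1.11 for Junb and 3.94 for Atf3, each in a different oocyte, and the lowest was 2.64 for Dusp1. In serial sections, Fos was highest at 0.457 in the first section of 1 oocyte. In the second sections the highest values were 1.61 for Fos, 0.299 for Jun, 1.11 for Junb, 1.40 for Atf3 and 1.81 for Zfp36, where Jun and Junb came from the same oocyte.

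In neighboring pools of about 10 granulosa cells, the highest value was 2.69 for Fos (pool number 7), 5.15 for Egr1 (number 6), and 3.63 for Jun and 6.13 for Dusp1 (both number 4). Pool number 4 also had the highest Ccl2 (3.83). In non-neighboring pools the highest were 4.49 for Jun, 6.27 for Egr1, 3.16 for Dusp1 and 1.75 for Zfp36, with Jun and Zfp36 from pool number 6. In bulk granulosa, the highest value was 1.03 for Fosb (bulk sample 8) and 0.199 for Ccl2 (bulk sample 4), and the lowest for Ier2 was 0.0, where the next was 2.80.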

How the results depend on the processing

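In granulosa cells, 6 members were called and 5 to 7 when 1 library pool was left out, 7 with a pseudocount of 0.1 and 3 (Fos, Jun and Ier2) with a pseudocount of 10. Summed counts gave 8 higher and Ccl2 lower, through 1 LCM cell, and libraries of at least 100000 reads gave 5, without Fosb. No member difference changed sign among those called. In oocytes Ccl2 was the 1 member called higher in every alternative run, and summed counts also called Ier2 lower in dissociated oocytes, at −2.30. In mESCs the count was 0 in each run. In formalin, a pseudocount of 0.1 called Zfp36 lower beside Ier2, and summed counts gave 1 member higher (Atf3) in place of 0. With summed counts, the split of all genes called in formalin moved from 223 higher and 1285 lower to 1148 and 1137. On summed counts the median of all genes moved to −0.36 in granulosa cells and −0.24 in oocytes, and granulosa genes split as 1500 higher and 2767 lower. Totals over all genes could be used for the formalin comparison alone, since the same-mouse and mESC tables hold protein-coding genes only, and this alternative was not run there.

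Between pools, 0.453% of 9704 genes were called (44), 0.443% with RLE size factors, 0.294% of 19026 genes without the count filter and 1.2% with DESeq2. Leaving out 1 pool number gave 0.0512% to 0.353%, with 5 genes without number 5, 6 without number 4, 10 without number 6, 22 without number 7 and 27 without number 3. With the pool number as a replicate block, 0.0309% (3 genes) were called. Whether the numbers pair the pools was not settled. The 7 same-number correlations of deviations ran from 0.0059 to 0.189, with 2 above 0.1. Of the 7 neighboring pools, 3 correlated best with their own number. The fit without the block and the fit with it are therefore both given. The count of members called was 0 in each of these fits. Between bulk and pools, 0.101% of 11917 genes were called (12), 0.0755% with RLE size factors, 2.31% of 20075 without the filter (452 higher, 11 lower) and 0.562% with DESeq2 (16 higher, 51 lower). Leaving out 1 library gave 0 to 0.469%. The count was 0 without bulk sample 3, 5, 6 or 8 or non-neighboring pool 5, 2 without neighboring pool 2 and 57 without bulk sample 4. It was 19 to 34 without bulk sample 2, neighboring pool 1, 3 or 6, or non-neighboring pool 1, 2, 3 or 4. Without the filter 1 member, Fosb (read in 4 bulk samples and no pool), was called, and 0 in every other fit. The cause of these changes was not tested. Low counts limit the members in LCM cells and pools, where most had no read.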
